A study of Mus musculus with 128 samples.

Results

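The effect of trisomy on cerebellar gene expression was compared between 2 mouse models of Down syndrome, Ts1Cje and Ts65Dn. For every probe set, the log2 difference between trisomic mice and euploid littermates (the trisomy effect) in Ts65Dn was subtracted from that in Ts1Cje. The comparison used 20 of the 128 arrays of the series, 5 in each of 4 groups of separate animals: Ts1Cje trisomic, Ts1Cje euploid, Ts65Dn trisomic and Ts65Dn euploid. All were untreated males 6 to 7 months old, and total RNA of the cerebellum was hybridized to Affymetrix arrays holding 21225 probe sets, 1 per gene. Ts1Cje males had been crossed to C57Bl/6J females, and Ts65Dn/F1 females to B6EiC3Sn.BLiAF1 males. Strain background, the sex of the trisomic parent and the trisomic segment therefore cannot be told apart in a difference between the models.

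The models differ in which genes are present in an extra copy. Both carry 3 copies of mouse chromosome 16 (MMU16) from Scaf4 to Zbtb21, a stretch orthologous to human chromosome 21 that includes the interferon receptor genes. Ts65Dn also carries an extra copy of the adjoining MMU16 stretch from Mrpl39 to Sod1, with the amyloid precursor gene App, and of proximal MMU17 from Scaf8 to Pde10a, which has no counterpart on human chromosome 21. Ts1Cje carries a translocation with MMU12, and its trisomic mice have 1 copy of the MMU12 genes from Dnah11 to Tmem196. The copy number classes set genes whose dose differs between the models apart from genes present in 2 copies in both. Values are also given for the cerebellum of the third model, Dp16, whose males were crossed to C57Bl/6J females and whose trisomic mice carry 3 copies of MMU16 genes from Lipi to Zbtb21 (5 trisomic and 5 euploid males of the same age), and for the cortex and hippocampus of adult Ts1Cje and Ts65Dn males and the forebrain of their E15.5 embryos of both sexes (5 trisomic and 5 euploid in Ts1Cje, 6 and 7 in Ts65Dn). The arrays held 7 probe sets of the MMU12 segment, 50 of MMU16 Mrpl39 to Sod1, 73 of MMU16 Scaf4 to Zbtb21, 29 of MMU17 Scaf8 to Pde10a, 20605 of genes with 2 copies in both models and 461 that could not be placed.

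Array medians were 6.60 to 6.65 (log2 signal) in Ts1Cje and 6.60 to 6.63 in Ts65Dn, and arrays of 1 group correlated at 0.991 to 0.997. Signals were normalized by the authors separately for each model and tissue, so levels are set against each other only within a model and tissue. The check of the tissue label is an exception, as it spans arrays that were normalized apart. The tissue label was checked by setting the cerebella against the cortices of the same models: 14 of 15 Purkinje cell markers and 14 of 15 granule cell markers were higher in cerebellum (medians 3.25 and 3.23 on the log2 scale), and 12 of 12 forebrain markers were lower (median -2.92). Genes of the segment that both models share had a median fold of 1.29 in Ts1Cje and 1.27 in Ts65Dn over all 73 probe sets, and of 1.38 and 1.36 over the 46 whose mean signal was above the median of all probe sets, 6.62.

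At a false discovery rate (FDR) below 10% the trisomy effect differed between the models for 33 of 21225 probe sets (0.155%), of which 7 were higher in Ts1Cje (0.0330%) and 26 were lower (0.122%). At an FDR below 5% there were 24 and below 20% there were 136. The split between directions depended on the scaling: 22 of 49 called probe sets were higher in Ts1Cje when the 20 arrays were quantile-normalized together, and 13 of 36 when each array was centred on its median. Of the 33 genes, 15 lay in segments whose copy number differs between the models and 18 in genes with 2 copies in both. None of the 73 genes with 3 copies in both was called. Within each model, compared with euploid littermates and adjusted jointly over 12 comparisons of the series, 91 probe sets were differentially expressed (DEX) in Ts1Cje (0.429%) and 63 in Ts65Dn (0.297%). The Ts1Cje count was 56 without 1 of the Ts1Cje euploid animals.

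**Figure D1:**
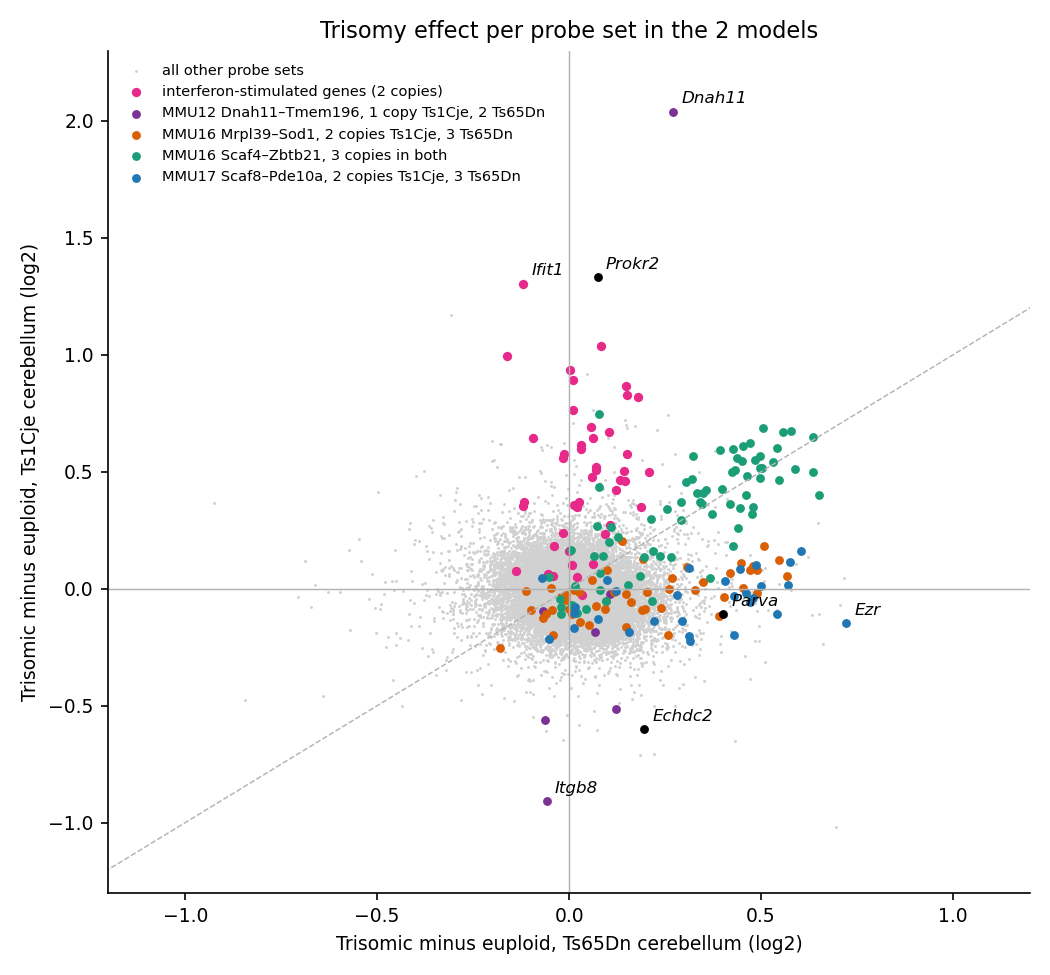
Trisomy effect (trisomic minus euploid, log2) of each of 21225 probe sets in Ts65Dn (horizontal axis) and Ts1Cje (vertical axis), coloured by copy number class, with 44 interferon-stimulated genes in pink, other named genes in black and the line of equal effects dashed. Genes of Scaf4 to Zbtb21 lie along the dashed line, the brighter genes with 3 copies only in Ts65Dn lie to the right near 0 on the vertical axis, and 43 of the 44 interferon-stimulated genes lie above 0 on the vertical axis, with Ts65Dn values between -0.16 and 0.21.

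Genes of the MMU12 segment gave the largest difference of the contrast and 2 further calls among 7 probe sets, against 0.155% called over all probe sets. Dnah11, which encodes a heavy chain of the dynein motor of motile cilia (MMU12, 117877982 to 118199043, GRCm38.p6), had a signal of 6.93, 7.07, 7.10, 7.20 and 7.34 in Ts1Cje euploid cerebella and of 9.05, 9.08, 9.16, 9.25 and 9.29 in trisomic ones, so the groups lay far apart. In Ts65Dn the euploid values were 7.05, 7.13, 7.17, 7.47 and 7.49 and the trisomic values 7.36, 7.50, 7.52, 7.57 and 7.72, which overlapped. Dnah11 was 4.11-fold in Ts1Cje and 1.21-fold in Ts65Dn, a difference of effects of 1.77 (log2, SE 0.13, adjusted P = 7.72e-08 by limma). The trisomic Ts1Cje mice, in which it rose, carry 1 copy of it. The paper attributes this overexpression to the breakpoint of the translocation, as an artifact, and considers truncation of Dnah11 the likely reason. That was not tested here.

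The other 6 genes of the segment had differences of the opposite sign. Itgb8, the beta subunit of an integrin that activates latent TGF-beta, had values of 9.40, 9.47, 9.64, 9.68 and 9.69 in Ts1Cje euploids and 8.49, 8.53, 8.59, 8.73 and 9.00 in trisomics, and 9.17 to 9.67 and 9.25 to 9.46 in Ts65Dn. The Ts1Cje groups did not overlap and the Ts65Dn groups did. Itgb8 was 0.533-fold in Ts1Cje and 0.960-fold in Ts65Dn (difference -0.85, SE 0.14, adjusted P = 0.0105). Tmem196, a transmembrane protein gene, was 0.701-fold and 1.09-fold (difference -0.63, SE 0.12, adjusted P = 0.0379). The transcription factor gene Sp4 was DEX within Ts1Cje (log2 effect -0.56, joint adjusted P = 0.0133), with trisomic values of 7.44 to 7.97 below euploid values of 8.18 to 8.27, but its difference of effects missed the threshold (-0.50, SE 0.12, adjusted P = 0.152). Sp8, Abcb5 and Macc1, all below the median signal, had differences of -0.25, -0.13 and -0.03, with adjusted P of 0.488, 0.663 and 0.966. Over the 7 genes 6 differences were negative, against 42.8% positive over all probe sets.

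Of the 29 genes of proximal MMU17, 27 had a positive trisomy effect in Ts65Dn and 10 in Ts1Cje. At the joint FDR below 10%, 13 were DEX and higher in Ts65Dn and 0 in Ts1Cje, against 0.297% and 0.429% DEX over all probe sets. The difference of effects was called for 9, against 0.155% over all probe sets, and all 9 were lower in Ts1Cje. Of the 29 differences 28 were negative, with a median of -0.38, against a median of -0.03 and 42.8% positive over all probe sets. The 18 genes above the median signal had a median fold of 1.38 in Ts65Dn, 0.991 in Ts1Cje and 1.00 in Dp16, in which this segment is present in 2 copies. All 18 of their differences were negative.

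Tulp4, which encodes a tubby-like protein (MMU17, 6106253 to 6240637), had the lowest P of the segment. Its signal was 10.43, 10.45, 10.46, 10.48 and 10.50 in Ts65Dn euploids and 10.83, 10.92, 10.96, 10.99 and 11.03 in trisomics, whereas Ts1Cje gave 10.38 to 10.43 and 10.29 to 10.43. It was 1.39-fold in Ts65Dn and 0.974-fold in Ts1Cje (difference -0.52, SE 0.07, adjusted P = 0.00251). The largest difference belonged to Ezr, which encodes ezrin, a protein linking the plasma membrane to actin. Its Ts65Dn euploid values were 7.61, 7.87, 7.87, 8.01 and 8.23 and its trisomic values 8.57, 8.60, 8.62, 8.66 and 8.74. The fold was 1.65 in Ts65Dn and 0.903 in Ts1Cje (difference -0.87, SE 0.15, adjusted P = 0.0125). In Ts1Cje the 2 groups of Ezr overlapped, and 1 euploid animal at 7.93 lay below the other 4, which were 8.41 to 8.50.

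Among the other called genes of the MMU17 segment, Tmem242 (mitochondrial membrane protein) was 1.46-fold in Ts65Dn and 0.927-fold in Ts1Cje, with Ts65Dn values of 8.44 to 8.64 in euploids and 8.96 to 9.25 in trisomics. Arid1b, a subunit of the BAF chromatin remodeling complex, was 1.41-fold and 1.01-fold. Snx9 (membrane trafficking), Zdhhc14 (palmitoyltransferase), Gtf2h5 (a subunit of the repair and transcription factor TFIIH), Prr18 and Cep43 (centrosomal protein) were 1.35-fold to 1.49-fold in Ts65Dn and 0.873-fold to 1.01-fold in Ts1Cje. Adjusted P of these 7 genes was 0.00639 to 0.0401. Among the uncalled genes above the median signal, Rps6ka2, a ribosomal S6 kinase, had the largest difference (-0.46, adjusted P = 0.116) and Unc93a2 the smallest (-0.13, 95% confidence interval -0.45 to 0.19, adjusted P = 0.796). Scaf8, Serac1 and Tfb1m lay between them at -0.37, -0.38 and -0.45. Pisd-ps2 lies between the centromere and Scaf8, outside the segment as bounded here, and was therefore counted with 2 copies. The paper places the centromeric part of MMU17 on the extra chromosome of Ts65Dn, so the true copy number of Pisd-ps2 there may be higher. Its difference was -0.45 (SE 0.20, adjusted P = 0.450).

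Genes of MMU16 from Mrpl39 to Sod1 gave 3 calls among 50 probe sets, all lower in Ts1Cje, against 0.155% called over all probe sets. The segment holds many keratin-associated protein genes, and only 16 of its probe sets were above the median signal. Of those 16, 15 had a negative difference (median -0.39) with a median fold of 1.35 in Ts65Dn and 1.03 in Ts1Cje. Over all 50, 46 differences were negative with a median of -0.19, and 11 genes were DEX in Ts65Dn and 0 in Ts1Cje. Over all probe sets 42.8% of differences were positive, and 0.297% were DEX in Ts65Dn and 0.429% in Ts1Cje. Usp16, a histone H2A deubiquitinase (MMU16, 87454985 to 87483515), was 8.09, 8.18, 8.27, 8.31 and 8.38 in Ts65Dn euploids and 8.68, 8.69, 8.72, 8.76 and 8.82 in trisomics, and 8.02 to 8.23 and 8.01 to 8.35 in Ts1Cje. The Ts65Dn groups were apart and the Ts1Cje groups overlapped (difference -0.51, SE 0.10, adjusted P = 0.0381). Atp5j, a subunit of mitochondrial ATP synthase, was 10.45 to 10.81 in Ts65Dn euploids and 10.83 to 11.17 in trisomics, and 10.59 to 10.67 and 10.41 to 10.60 in Ts1Cje (difference -0.51, SE 0.10, adjusted P = 0.0597). Tiam1, a guanine nucleotide exchange factor for Rac, had a difference of -0.44 (SE 0.10, adjusted P = 0.0985). When each of the 20 animals was left out in turn, Usp16 stayed past the threshold in 20 fits, Atp5j in 12 and Tiam1 in 4.

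App missed the threshold. Its groups were narrow (SD 0.03 to 0.04) except the Ts1Cje euploids (SD 0.11). It was 12.38, 12.41, 12.44, 12.44 and 12.46 in Ts65Dn euploids and 12.73, 12.74, 12.79, 12.81 and 12.82 in trisomics, a fold of 1.27 and DEX within Ts65Dn (joint adjusted P = 0.0132), while Ts1Cje values were 12.29 to 12.55 in euploids and 12.47 to 12.53 in trisomics. The difference of effects was -0.32 (SE 0.08, 95% confidence interval -0.48 to -0.16, adjusted P = 0.138). Adamts1, an extracellular metalloproteinase, had the largest uncalled difference of the segment (-0.51, SE 0.12, adjusted P = 0.144), and the mitochondrial ribosomal gene Mrpl39 and the junctional adhesion gene Jam2 had -0.39 and -0.32. Sod1, the cytosolic superoxide dismutase at the distal end of the segment, had the only positive difference of the 16, at 0.07 (95% confidence interval -0.20 to 0.34). Its Ts65Dn values were 10.86 to 11.02 in euploids and 10.88 to 11.27 in trisomics, and its Ts1Cje values 10.53 to 10.99 and 10.65 to 11.06. According to the paper, Ts1Cje mice have lost a functional copy of Sod1, and whether that bears on the signal was not tested.

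**Figure D2:**
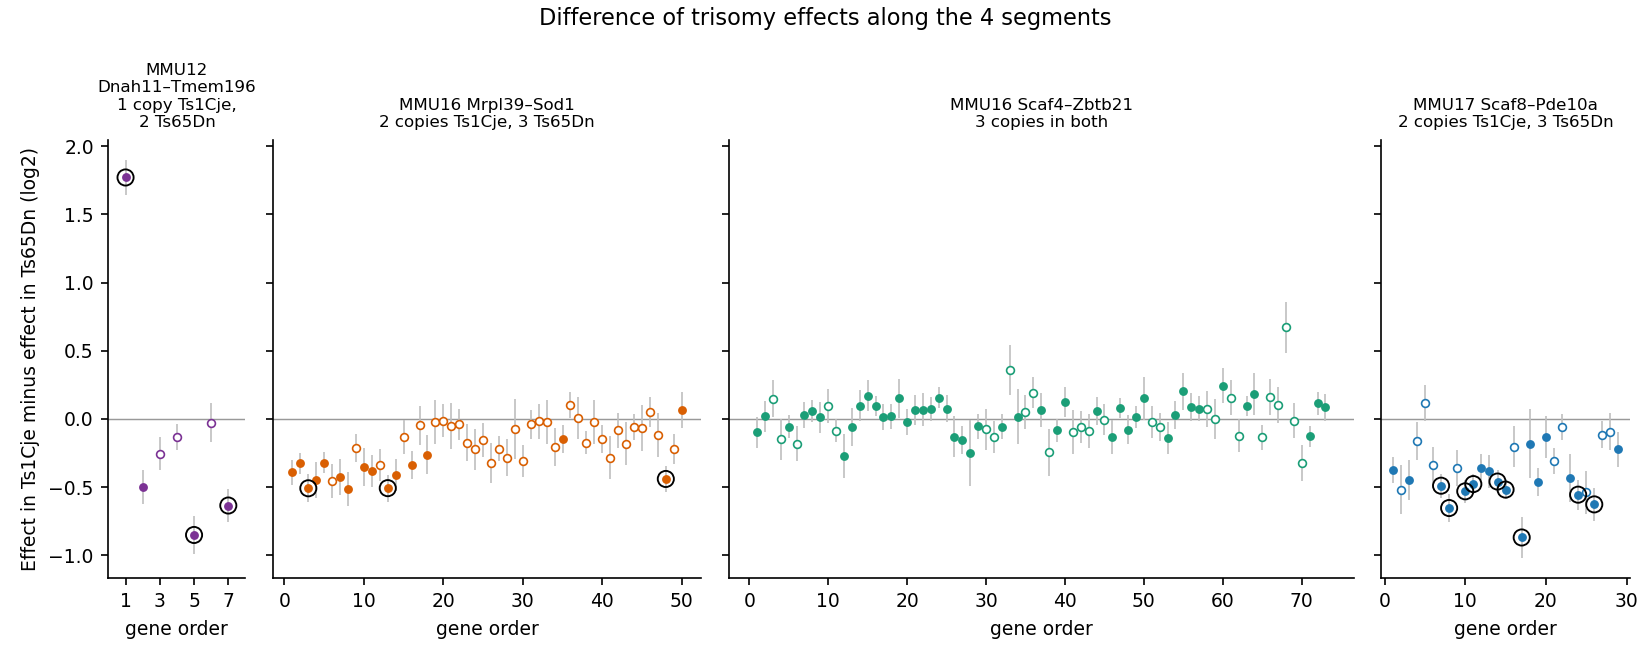
Difference of trisomy effects (effect in Ts1Cje minus effect in Ts65Dn, log2, vertical axis) with its standard error for the probe sets of the 4 segments in gene order (horizontal axis). Filled points are above the median signal, open points below it, and black rings mark FDR below 10%. The points of Scaf4 to Zbtb21 scatter around 0, filled points of the 2 segments with 3 copies only in Ts65Dn lie below 0 except Sod1 at 0.07, and in the MMU12 panel Dnah11 lies at 1.77 above 6 genes below 0.

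In the segment with 3 copies in both models no difference of effects was called. Within the models 33 of its 73 genes were DEX in Ts1Cje and 29 in Ts65Dn, against 0.429% and 0.297% over all probe sets. The differences had a median of 0.02 over the 73 genes, of which 42 were positive, and the range was -0.32 to 0.67. For the 46 genes above the median signal all 46 confidence intervals (95%) included 0 and 43 lay within 0.5 of it on the log2 scale. The intervals reached a median of 0.22 to either side of the estimate and were not adjusted for the number of probe sets. With 5 animals a group, larger differences could also miss the FDR threshold, as that of App in the adjoining segment (-0.32) did. The type I interferon receptor gene Ifnar1 was 8.68, 8.75, 8.81, 8.82 and 8.85 in Ts1Cje euploids and 9.30, 9.32, 9.33, 9.33 and 9.36 in trisomics, and in Ts65Dn 8.71, 8.75, 8.79, 8.85 and 8.87 in euploids and 9.22, 9.22, 9.25, 9.25 and 9.30 in trisomics. Trisomic and euploid animals were apart in both models, with folds of 1.46 and 1.37 and a difference of 0.09 (95% confidence interval -0.06 to 0.24). The differences were 0.10 for Ifnar2, the other subunit of that receptor, 0.02 for Ifngr2, a subunit of the type II receptor, and 0.17 for Il10rb, a subunit shared by the receptors of IL10 and type III interferons.

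The 5 genes of this segment with the lowest P were Mx2, Ripk4, Itsn1, 2410124H12Rik and B3galt5, none past the threshold (adjusted P 0.208 to 0.545). Mx2, itself an interferon-induced antiviral GTPase, was 3.55, 3.68, 3.79, 3.80 and 4.25 in Ts1Cje euploids and 4.24, 4.45, 4.66, 4.68 and 4.78 in trisomics, and 3.61 to 4.23 and 3.69 to 4.19 in Ts65Dn. It was DEX in Ts1Cje (1.68-fold) and not in Ts65Dn (1.06-fold), and its difference of 0.67 (SE 0.18) was the largest of the segment.

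Among the 20605 genes with 2 copies in both models, 18 were called, 6 higher and 12 lower in Ts1Cje. Of the 6 higher, Eif2ak2, Ifit1 and Rtp4 are induced by interferons. Their mean signals of 6.37, 5.82 and 5.79 were below the median of all probe sets, 6.62. Type I interferon binds the receptor encoded by Ifnar1 and Ifnar2, and receptor-bound kinases of the JAK family then activate transcription factors that bind interferon-stimulated response elements in the promoters of target genes. Those targets include RNA sensors and antiviral effectors. In brain, microglia, astrocytes and neurons can all respond.

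Promoter sequences are shown for 4 genes of this group because the response element is read from them. The core of the response element was searched for as GAAA, any 2 bases and GAAA again, on either strand (TTTC, any 2 bases, TTTC on the other), in RefSeq windows of 300 bases, 250 before and 50 after the transcription start, on GRCm38.p6. It was present in 1131 of 32851 windows (3.44%) and in 17 of 41 windows of the interferon-stimulated genes matched by symbol (41.5%). Ifit1 and Eif2ak2 are shown as called genes and Ifit3 and Oasl2 as genes that missed the threshold (adjusted P of 0.138 and 0.116), the last of them without a match. The first 280 bases are printed 5′ to 3′ on the strand of the gene, with motif matches in capitals. A match is a description of the letters.
Ifit1 (chr19:34640639-34640918, plus strand): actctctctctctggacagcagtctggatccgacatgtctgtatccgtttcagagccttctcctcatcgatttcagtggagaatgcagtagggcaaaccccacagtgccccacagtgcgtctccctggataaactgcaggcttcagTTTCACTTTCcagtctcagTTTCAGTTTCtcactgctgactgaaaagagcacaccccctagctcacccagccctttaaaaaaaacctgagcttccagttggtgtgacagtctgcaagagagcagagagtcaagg
Eif2ak2 (chr17:78882543-78882822, minus strand): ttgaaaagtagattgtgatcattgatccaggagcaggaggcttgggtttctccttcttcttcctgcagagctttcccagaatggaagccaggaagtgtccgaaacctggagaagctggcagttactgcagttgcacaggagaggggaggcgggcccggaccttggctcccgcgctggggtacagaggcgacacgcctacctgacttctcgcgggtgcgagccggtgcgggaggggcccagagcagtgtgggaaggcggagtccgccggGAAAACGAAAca
Ifit3 (chr19:34583279-34583558, plus strand): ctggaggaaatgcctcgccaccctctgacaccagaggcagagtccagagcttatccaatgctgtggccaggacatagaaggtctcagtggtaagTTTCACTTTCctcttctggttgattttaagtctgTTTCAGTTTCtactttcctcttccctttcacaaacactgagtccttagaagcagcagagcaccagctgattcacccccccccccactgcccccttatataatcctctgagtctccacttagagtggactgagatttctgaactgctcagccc
Oasl2 (chr5:114896684-114896963, plus strand): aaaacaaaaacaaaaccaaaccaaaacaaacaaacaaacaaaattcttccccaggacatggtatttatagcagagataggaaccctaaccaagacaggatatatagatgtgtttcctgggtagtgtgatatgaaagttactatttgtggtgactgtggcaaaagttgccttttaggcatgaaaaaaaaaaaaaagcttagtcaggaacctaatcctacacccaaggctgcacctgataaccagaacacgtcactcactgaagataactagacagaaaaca
Ifit1 holds 2 matches, starting at positions -104 and -85 from the transcription start, Ifit3 holds 2 at -156 and -122, Eif2ak2 holds 1 at position 19 after the start, and the Oasl2 window holds none.

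Eif2ak2, which encodes the double-stranded RNA-activated kinase PKR and lies on MMU17 outside the segment, was 6.14 to 6.48 in Ts1Cje euploids and 6.85 to 7.26 in trisomics, against 5.87 to 6.22 and 5.96 to 6.17 in Ts65Dn. It was 1.70-fold and 1.01-fold (difference 0.76, SE 0.12, adjusted P = 0.00639). Ifit1, an RNA-binding antiviral protein, was 5.40, 5.67, 5.93, 6.06 and 6.19 in Ts1Cje euploids and 6.63, 6.77, 7.02, 7.60 and 7.75 in trisomics, and 4.99, 5.07, 5.22, 5.23 and 5.46 in Ts65Dn euploids and 4.62, 4.97, 5.02, 5.03 and 5.72 in trisomics. Again only the Ts1Cje groups were apart. Ifit1 was 2.47-fold and 0.920-fold (difference 1.42, SE 0.29, adjusted P = 0.0475). Rtp4, a receptor transporter protein induced by interferon, lies on MMU16 at 23520219, far from the segments, and was 1.86-fold and 1.01-fold (difference 0.88, SE 0.19, adjusted P = 0.0999). With 1 animal left out in turn, Eif2ak2 stayed past the threshold in 20 of 20 fits, Ifit1 in 15 and Rtp4 in 4. Over 9 other settings Eif2ak2 kept its call in 8 (adjusted P = 0.183 by limma with the Dp16 cerebella added to the fit). Ifit1 kept it in 7 (0.238 by limma with the olfactory receptor mean as a covariate) and Rtp4 in 5 (0.261 with Dp16 added). A further setting, restricted to probe sets above the median signal, left these genes out.

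Of 46 genes listed, 44 were measured, all with 2 copies in both models and 13 above the median signal, and 43 of the 44 differences were positive, with a median of 0.42 against -0.03 over all probe sets. At an unadjusted P under 0.05, 29 were higher in Ts1Cje and 0 lower, against 3.35% higher and 6.58% lower over all probe sets. The median fold was 1.40 in Ts1Cje, where 16 were DEX and all 16 rose, and 1.02 in Ts65Dn, where 0 were DEX. Over all probe sets 0.429% were DEX in Ts1Cje and 0.297% in Ts65Dn. Usp18, which removes ISG15 from proteins, Oasl2, an oligoadenylate synthetase-like protein, and Ifit3 just missed the threshold, with differences of 0.93, 0.96 and 1.16 and adjusted P of 0.102, 0.116 and 0.138. At the other end Oas3, Oas2, Oas1a and Oasl1 had differences of 0.03, 0.05, 0.10 and -0.06. The paper reports interferon signaling as upregulated in cerebellum in every model it studied, Ts65Dn included. It used pathway analysis of genes past an unadjusted P and a fold cut-off, and gene set enrichment over all genes. Those measures and thresholds differ from the ones used here.

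Averaged over the 44 genes, the log2 signal was 6.15, 6.18, 6.26, 6.31 and 6.43 in Ts1Cje euploids and 6.55, 6.66, 6.71, 6.88 and 6.98 in trisomics, and 5.93, 5.94, 5.95, 6.05 and 6.10 in Ts65Dn euploids and 5.94, 5.98, 6.00, 6.03 and 6.19 in trisomics. The Ts1Cje groups did not overlap and the Ts65Dn groups lay over each other. In Dp16 cerebella, which entered no part of the contrast, the trisomic values were 6.62 to 6.85, and the euploid values were 6.15, 6.16, 6.24, 6.34 and 6.82, with 1 euploid animal inside the trisomic range. The highest Dp16 euploid value was at or near the trisomic range for triplicated genes as well. The mean of the interferon receptor and Mx genes reached 7.39 in euploids, against 7.23 to 7.48 in trisomics. App reached 12.74, against 12.78 to 12.86. With these euploids as reference, the median fold of the interferon-stimulated genes in Dp16 was 1.29 and 0 of them were DEX. Without 1 Dp16 euploid animal the count of DEX probe sets in Dp16 rose from 4 to 69. The reason was not tested. The difference between Dp16 and the other models was not tested.

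**Figure D3:**
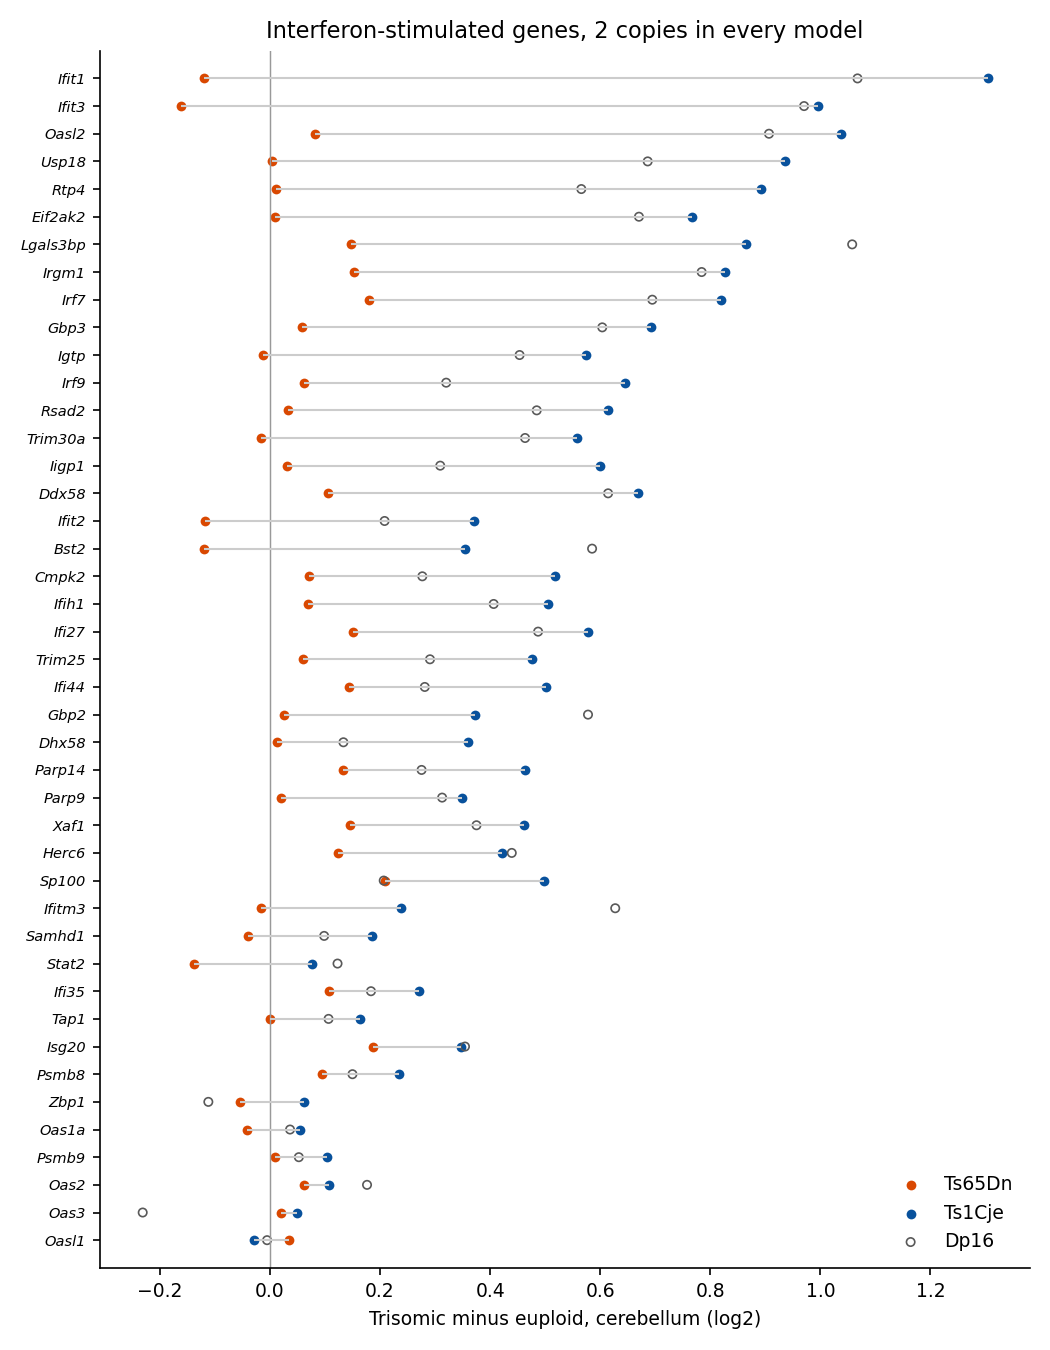
Trisomy effect in cerebellum (trisomic minus euploid, log2, horizontal axis) of 43 interferon-stimulated genes (rows, ordered by the difference between models) in Ts1Cje (blue), Ts65Dn (orange) and Dp16 (open circles). The Ts1Cje value exceeds the Ts65Dn value in 42 of 43 rows, and 31 Dp16 values lie nearer to the Ts1Cje value than to the Ts65Dn value.

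Genes of MHC class I and antigen presentation, many of which interferons also induce, were less uniform: of 15 measured, 11 differences were positive (median 0.14). At an unadjusted P under 0.05, 6 were higher and 1 lower, against 3.35% higher and 6.58% lower over all probe sets, and none passed the FDR. H2-T23, B2m and H2-T22 had the lowest P, with differences of 0.60, 0.64 and 0.74 and adjusted P of 0.182, 0.335 and 0.377. B2m encodes the light chain of all class I molecules. Of 25 JAK-STAT signaling genes outside the list, 11 differences were positive (median -0.01) and none was called. Markers of microglia, which can express both groups, had smaller differences, mostly of the same sign: 13 of 14 were positive (median 0.15), 2 were higher at an unadjusted P under 0.05 (Itgam, 0.39, and Csf1r, 0.28) and none was called. Their mean signal was 7.08 to 7.20 in Ts1Cje euploids, 7.12 to 7.37 in trisomics, 6.75 to 7.03 in Ts65Dn euploids and 6.74 to 6.95 in trisomics. Their part in the interferon result was not tested, and in whole tissue fewer cells of a type and less RNA per cell cannot be told apart.

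Prokr2, below the median signal, and Cd38, above it, were also higher in Ts1Cje. Prokr2, a receptor for prokineticins, was 5.04, 5.10, 5.37, 5.43 and 5.45 in Ts1Cje euploids and 6.26, 6.28, 6.61, 6.88 and 7.03 in trisomics, and 4.92 to 5.53 and 4.94 to 5.64 in Ts65Dn. Trisomic Ts1Cje animals stood apart from their euploid littermates, and the Ts65Dn groups overlapped. The fold was 2.52 in Ts1Cje and 1.05 in Ts65Dn (difference 1.26, SE 0.22, adjusted P = 0.0125). Cd38, an enzyme that consumes NAD, was 1.29-fold in Ts1Cje and 0.866-fold in Ts65Dn, with neither effect DEX (difference 0.57, SE 0.12, adjusted P = 0.0985), and stayed past the threshold in 3 of 20 fits with 1 animal left out.

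Of the 12 genes with 2 copies that were lower in Ts1Cje, Echdc2, an enoyl-CoA hydratase domain protein, was 8.22, 8.27, 8.27, 8.31 and 8.39 in Ts1Cje euploids and 7.51, 7.55, 7.73, 7.74 and 7.93 in trisomics, and 7.89 to 8.31 and 8.15 to 8.46 in Ts65Dn. It fell within Ts1Cje (0.660-fold, joint adjusted P = 0.00586) and was 1.14-fold in Ts65Dn, not DEX (difference -0.80, SE 0.13, adjusted P = 0.00639). Itpr3, an inositol trisphosphate receptor on MMU17 at 27057002, was 7.85 to 8.01 in Ts1Cje euploids and 7.21 to 7.54 in trisomics with no overlap, and 7.73 to 7.99 and 7.69 to 8.23 in Ts65Dn (difference -0.61, SE 0.12, adjusted P = 0.0408). Parva, an actin-binding partner of integrin-linked kinase, differed through the other model: it was 9.27, 9.28, 9.28, 9.33 and 9.44 in Ts65Dn euploids and 9.61, 9.66, 9.74, 9.78 and 9.82 in trisomics, and 9.19 to 9.36 and 9.06 to 9.21 in Ts1Cje. Parva was 1.32-fold in Ts65Dn (joint adjusted P = 0.0189) and 0.927-fold in Ts1Cje (difference -0.51, SE 0.08, adjusted P = 0.00639).

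Slc38a5, a glutamine transporter below the median signal, was 5.78 to 6.20 in Ts65Dn euploids and 6.32 to 6.77 in trisomics (difference -0.65, SE 0.13, adjusted P = 0.0401). Dusp16, a phosphatase of MAP kinases, had a difference of -0.42 (adjusted P = 0.0735). The other 7 genes were all below the median signal: Slc7a13 (-0.48), Adam1b (-0.66), Neu2 (-0.52), Mir499 (-0.63), Casp12 (-0.72), Cox6b2 (-0.71) and D930020B18Rik (-0.75), with adjusted P of 0.0125 to 0.0999. Neu2, a sialidase, was DEX in Ts65Dn (1.33-fold, joint adjusted P = 0.0309). Adam1b, Casp12 (an inflammatory caspase) and Cox6b2 (a cytochrome c oxidase subunit) were DEX in Ts1Cje, at 0.752-fold, 0.707-fold and 0.745-fold. With 1 animal left out in turn, Casp12 and Mir499 stayed past the threshold in 9 of 20 fits, Dusp16 in 8, Cox6b2 in 6 and D930020B18Rik in 4. The 18 genes lay on 12 chromosomes, and none lay within 10 Mb of a segment, where 163 genes flanked the MMU12 segment, 19 the MMU16 Mrpl39 to Sod1 segment and 66 the MMU17 segment. The lowest difference of all, -1.71 in 3110039M20Rik (SE 0.40, adjusted P = 0.132), was not called.

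**Figure D4:**
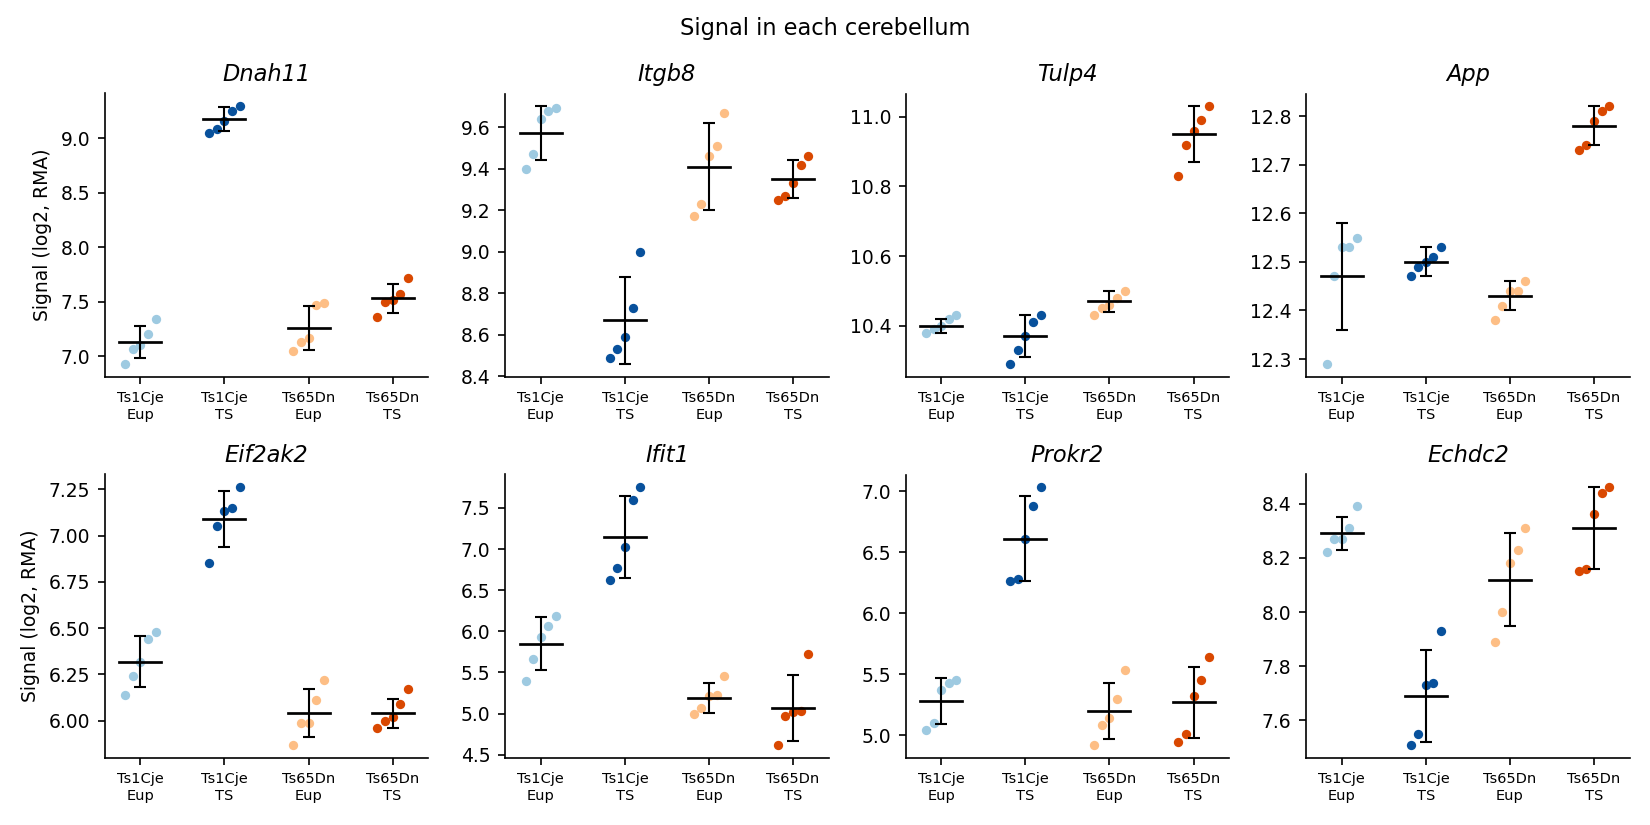
Log2 signal (vertical axis) of 8 genes in each of the 20 cerebella, by model and genotype (Eup, euploid; TS, trisomic; horizontal axis), with the mean as a line and the SD as bars (n = 5 in each group). Dnah11, Eif2ak2, Ifit1 and Prokr2 are high in Ts1Cje trisomics, Itgb8 and Echdc2 are low there, and Tulp4 and App are high in Ts65Dn trisomics.

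Markers of cerebellar cell types showed no called gene in 127 members of 10 lists, whose median differences were -0.20 to 0.15. The highest medians were those of molecular layer interneuron and Golgi cell markers (0.15), microglia (0.15) and Purkinje cell markers (0.14), and the lowest that of choroid plexus and ependymal markers (-0.20). Granule cell, Bergmann glia and astrocyte, oligodendrocyte, endothelial, blood and forebrain markers had medians of -0.09, 0.05, -0.05, -0.03, 0.02 and -0.12. At an unadjusted P under 0.05, 9 of the 127 markers were higher and 4 lower, against 3.35% higher and 6.58% lower over all probe sets. The 18 other pathway lists, some of which follow functions of segment genes, had median differences of -0.06 (Sp and Klf factors) to 0.11. Genes of different copy number were taken out of them, and none of their 361 members was called. Among them the mitochondrial ribosomal genes had a median of -0.02 over 72, the ATP synthase subunits 0.04 over 10, the amyloid processing genes 0.02 over 19, the superoxide and peroxide-removing enzymes 0.05 over 25, BAF subunits 0.06 over 16 and motile cilia genes -0.01 over 25. The 1098 olfactory receptor probe sets, which carry little signal in brain, had a median of -0.12, with 206 positive differences. At an unadjusted P under 0.05, 3 were higher and 140 lower, and none was called. With their mean as a covariate 24 probe sets were called, of which 16 were among the 33, and their part in the calls was not otherwise tested.

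The same contrast in other tissues of these models called mostly segment genes and none of the interferon-stimulated genes. At an FDR below 10% it called 9 probe sets in adult cortex (0.0424%), 10 in hippocampus (0.0471%) and 14 in E15.5 forebrain (0.0660%), of which 8, 9 and 14, respectively, lay in segments with different copy number. Dnah11 differed by 3.74, 3.48 and 3.30 in the 3 tissues, compared with 1.77 in cerebellum, and Itgb8 by -0.81, -0.87 and -0.75, compared with -0.85. The bright MMU17 genes had median differences of -0.42, -0.47 and -0.35, compared with -0.46. Ifit1 differed by -0.41, -0.15 and -0.07, and the median over the 44 interferon-stimulated genes was -0.06, -0.05 and -0.06, with 12, 18 and 15 positive. Prokr2 was -0.15, 0.07 and 0.05. Echdc2 was -0.57 and Slc38a5 -0.51 in cortex, the sign seen in cerebellum, and neither was called there. Adult cortex and hippocampus carry the same animal numbers as the cerebella, and the difference between tissues was not tested.

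**Figure D5:**
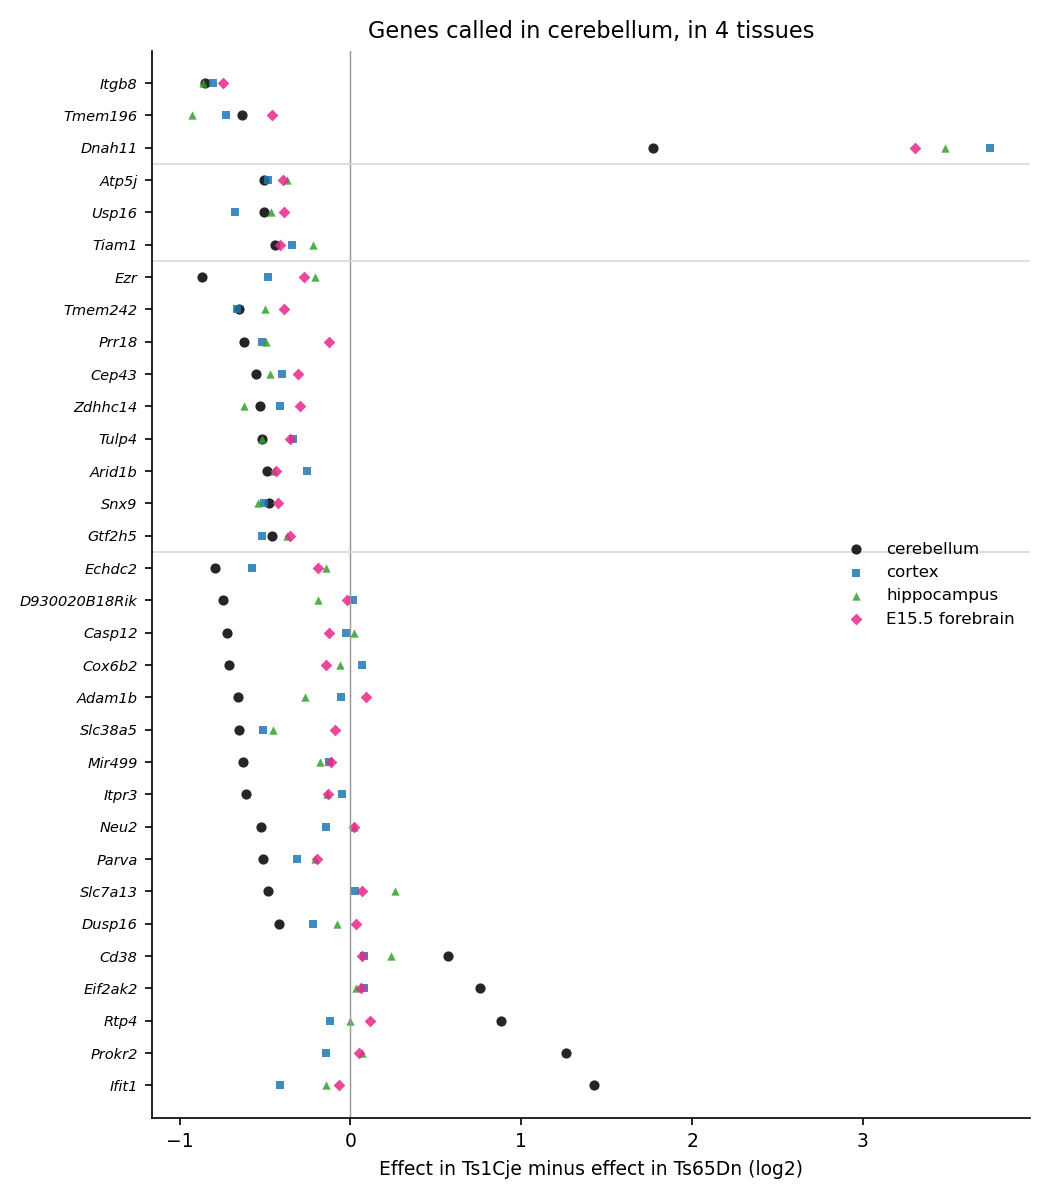
Difference of trisomy effects (effect in Ts1Cje minus effect in Ts65Dn, log2, horizontal axis) of 32 of the 33 genes called in cerebellum (rows) in 4 tissues, grouped from the top as MMU12, MMU16 Mrpl39 to Sod1, MMU17 and genes with 2 copies. The 15 segment genes have the same sign in all 4 tissues, and each of the 17 plotted genes with 2 copies has its largest absolute value in cerebellum, the tissue in which it was called.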

How the data were processed

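The authors hybridized total RNA to Affymetrix Mouse Gene 1.0 ST arrays, summarized the scans by the robust multichip average (RMA) with a custom chip definition of 1 probe set per Entrez gene, separately for each model and tissue, and deposited log2 values. The deposited log2 values were used as given. No scan, slide or extraction batch is stated in the sources used here, and nothing says whether animals of a group shared a litter. Arrays carry no read depth, and 5 animals a group limit the precision.

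Probe sets were placed on GRCm38.p6 through RefSeq annotation. One limma fit (version 3.58.1, R 4.3.3) of the 4 groups gave the difference of effects with Benjamini-Hochberg adjustment over 21225 probe sets, and a gene was called at an FDR below 10%. Effects within a model came from separate fits, with 254700 P values of 12 comparisons adjusted together. The procedure was tested on simulated data. Repeat hybridizations in other tissues were not counted as further animals.

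The text names all MMU12 genes, the called genes of every class, the uncalled bright segment genes with the largest and smallest difference, the 5 lowest P of the shared segment, up to 3 members of each list and genes the study names. 3110039M20Rik and genes at the ends of the interferon list were added after their values were seen. A few genes that entered the fits and counts are not reported here. The members and lists were chosen with earlier results of these data known. Alternatives were moderation, weights, scaling, filters, thresholds and leaving out each animal.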

Additional observations from a re-analysis of the deposited data

Results flagged for a closer look

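Of 310 groups of 5 animals examined, 20 had 1 animal farther from the other 4 than Dixon's 95% limit allows, and chance gives about 1 in 20 such groups. Of these, 19 are named here. The highest value stood apart for Snx9 in Ts1Cje euploids (7.68), Eif2ak2 in Dp16 trisomics (6.92), Itpr3 in Ts65Dn trisomics (8.23), Adamts1 in Ts65Dn euploids (7.15) and Serac1 in Ts65Dn trisomics (8.39). It also did for B2m in Ts1Cje euploids (10.99), Pisd-ps2 in Ts65Dn euploids (6.92), Il10rb in Ts1Cje euploids (7.55) and Ifnar2 in Ts65Dn euploids (8.0). The lowest value stood apart for Ezr in Ts1Cje euploids (7.93), Slc38a5 in Ts1Cje trisomics (5.62) and Ts65Dn euploids (5.78), Cd38 in Ts65Dn euploids (7.04), Sp4 in Ts1Cje euploids (8.18) and Csf1r in Ts1Cje trisomics (8.16). Among list means, 1 animal was high in Dp16 euploids for microglia markers (7.39), interferon-stimulated genes (6.82) and interferon receptor and Mx genes (7.39), and in Ts1Cje trisomics for MHC class I genes (7.10).

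The trisomy effect differed between the models, by the limma test of the difference at an FDR below 10%, for 33 genes, of which 32 are named here. It was higher in Ts1Cje for Dnah11 (1.77), Ifit1 (1.42), Prokr2 (1.26), Rtp4 (0.88), Eif2ak2 (0.76) and Cd38 (0.57). It was lower for the MMU12 genes Itgb8 (-0.85) and Tmem196 (-0.63), the MMU16 genes Usp16 (-0.51), Atp5j (-0.51) and Tiam1 (-0.44), and the MMU17 genes Ezr (-0.87), Tmem242 (-0.65), Prr18 (-0.63), Cep43 (-0.55), Zdhhc14 (-0.53), Tulp4 (-0.52), Arid1b (-0.49), Snx9 (-0.48) and Gtf2h5 (-0.46). Among genes with 2 copies it was lower for Echdc2 (-0.80), D930020B18Rik (-0.75), Casp12 (-0.72), Cox6b2 (-0.71), Adam1b (-0.66), Slc38a5 (-0.65), Mir499 (-0.63), Itpr3 (-0.61), Neu2 (-0.52), Parva (-0.51), Slc7a13 (-0.48) and Dusp16 (-0.42).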

How the results depend on the processing

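No paired analysis was possible because the 4 groups are different animals that share no number. The count of 33 called genes became 53 with each model fitted on its own, 84 with array weights (32 of the 33 among them) and 136 at an FDR below 20%. It was 24 with the olfactory receptor mean as a covariate (16 of the 33 among them), 36 without moderation (26) and 23 to 47 with 1 animal left out. Above the median signal it was 44, among them all 21 of the 33 genes that this filter left in. The median difference of genes with 2 copies was -0.0013 after joint quantile normalization, -0.00867 after centring each array and 0.017 above the median signal, where MMU12, MMU16 Mrpl39 to Sod1 and MMU17 gave -0.57, -0.39 and -0.46. With 1 animal left out, the medians were -0.31 to -0.19 (MMU12), -0.22 to -0.15 (MMU16 Mrpl39 to Sod1), 0.01 to 0.04 (Scaf4 to Zbtb21), -0.43 to -0.35 (MMU17), -0.03 to -0.02 (2 copies) and 0.36 to 0.47 (interferon-stimulated genes). DEX counts in Ts1Cje were 45 by the methods' t-test and 56 to 86 with 1 animal left out, and in Ts65Dn 49 to 60. The 4 in Dp16 became 1 by the methods' t-test, 0 when adjusted within the comparison (limma) and 1 to 69 with 1 animal left out (69 and 11 without either of 2 euploid animals, 2 and 1 without either of 2 trisomic ones). The counts in other tissues ranged from 5 to 19 in cortex (19 without 1 Ts1Cje euploid animal), 6 to 24 in hippocampus (24 without 1 Ts65Dn trisomic animal) and 11 to 17 in E15.5 forebrain. Leaving out animals in Dp16 and the other tissues was added after seeing the data. Differences near 0 changed sign: Ifnar2 (-0.00043 with array weights, -0.090 with the olfactory receptor mean as a covariate), Unc93a2 (0.023 and 0.15 in the same settings), Ifngr2 (-0.0021 with quantile normalization, -0.036 with the covariate, -0.026 to 0.066 with 1 animal left out), Macc1 (0.066 with quantile normalization, -0.083 to 0.050 with 1 animal left out) and Abcb5 (0.00051 with the covariate). The causes were not tested.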
